A study of Mus musculus with 6 samples.

Results

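The CDC-like kinases Clk1, Clk2, Clk3 and Clk4 were described in 6 mouse tumors, gene by gene and transcript by transcript. They were taken as the rows of the deposited count table that carry 1 of these 4 gene symbols, which gave 8 of its 20648 RefSeq transcripts and 4 of its 13730 genes. Clk1 had 3 of these transcripts, Clk2 had 2, Clk3 had 1 and Clk4 had 2. The family was chosen by the level of Clk1 in the treatment groups, whose difference was already known, so the values of the 4 genes and their transcripts in that comparison are a description and carry no test.

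The tumors grew from C0321 cells, a triple-negative breast cancer (TNBC) line made from an Lfng-/- mouse on the FVB background, which had been placed with Matrigel in the mammary fat pad of female FVB mice aged 6 to 10 weeks. Once a tumor could be felt, mice of the treated group were dosed orally once a day over 14 days with 60 mg/kg of sulindac sulfide (SS), into which the body converts the anti-inflammatory drug sulindac and which modulates γ-secretase. There were 3 tumors from this group and 3 from controls. The sample labels spell the drug as Sulindac Sulfate. The series description gives the controls saline, and the paper gives them vehicle. All 6 tumors come from this 1 line, carry the Lfng deletion of its source and hold cells of the host. The labels number the tumors within each group but do not say that each came from a separate mouse, so the spread between tumors may be partly technical. In such bulk tissue, fewer cells of a type and less RNA per cell cannot be told apart.

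CLK proteins are nuclear kinases with dual specificity that phosphorylate SR proteins, the serine- and arginine-rich factors that choose splice sites. SRPK kinases phosphorylate SR proteins mainly in the cytoplasm and favor their entry into the nucleus, and CLK kinases phosphorylate them further and release them from nuclear speckles. CLK genes are spliced targets of the same system. Clk1 and Clk4 in particular have transcripts that skip exon 4 and lose the reading frame, and transcripts that keep introns and stay in the nucleus.

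Gene coordinates are those of GRCm38. Clk1 lies on the minus strand at chr1:58411988-58424088, Clk2 on the plus strand at chr3:89164795-89177087, Clk3 on the minus strand at chr9:57750621-57766235, and Clk4 on the plus strand at chr11:51263114-51281770. Of the 13 GENCODE M21 transcripts of Clk1, 1 is annotated as protein coding, 7 as retaining an intron and 2 as targets of nonsense-mediated decay, the pathway that degrades mRNAs with an early stop codon. Clk4 has 14 GENCODE transcripts, of which 4 are coding, 7 retain an intron and 3 are decay targets.

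The exon that parts the coding form of Clk1 from its frame-shifted form is shown with its counterpart in Clk4, since the skipped forms of both genes are among the deposited transcripts. Both are coding exons of 91 bases, which leaves a remainder of 1 after division by 3. They are written 5′ to 3′ on the strand of the gene, with capitals at the bases where they differ from each other.
Clk1 exon 4, chr1:58420121-58420211, minus strand: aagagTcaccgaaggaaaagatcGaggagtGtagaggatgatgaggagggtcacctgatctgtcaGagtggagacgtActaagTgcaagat
Clk4 exon 4, chr11:51273078-51273168, plus strand: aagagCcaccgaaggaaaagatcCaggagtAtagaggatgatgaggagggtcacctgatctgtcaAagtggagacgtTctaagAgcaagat
The 2 exons were identical at 85 of 91 bases, or 93.4%, while the whole coding sequences of Clk1 and Clk4 were identical at 74.9% of aligned bases. Clk2 and Clk3 shared 72.2%, and the other pairs between 66.6% and 68.6%. The longest run of identical bases between the coding mRNAs of Clk1 and Clk4 was 34 bases and that between any other pair was at most 18 bases, against reads of 75 nucleotides.

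When exon 4 of Clk1 is left out, the reading frame moves and meets a stop codon in exon 5. The junction is shown because it defines NR_027853, with the stop codon in capitals after the last 21 bases of exon 3.
Clk1 exon 3 joined to exon 5, within chr1:58419713-58421103, minus strand: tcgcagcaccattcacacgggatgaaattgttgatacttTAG
GENCODE annotates this transcript as a decay target with 135 codons, against 483 codons in the 13 exons of the coding NM_001042634. The third Clk1 entry, the noncoding NR_027854, is linked in GENCODE M21 to the same transcript as the coding entry, so its exons could not be read from the annotation used here. Intron 3 of Clk1 measures 871 bases and intron 4 measures 387 bases, and 2 GENCODE transcripts span each of them without splicing.

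The 2 Clk2 transcripts differ by 3 bases at the start of exon 3 and by where exon 1 begins. The first bases of this exon are shown because they are 1 of the differences by which Clk2 counts can be divided between its transcripts, with capitals at the bases that only NM_007712 holds.
NM_007712, from chr3:89168695 on the plus strand: CAGctatgatgaccattcgtccgatcggcg
NM_001163432, from chr3:89168698 on the plus strand: ctatgatgaccattcgtccgatcggcg

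The authors sequenced stranded polyadenylated RNA and deposited estimated counts per transcript, whose totals ran from 8468914 in SS tumor 2 to 24441522 in control tumor 3. Levels are given as CPM, the usual scaling of counts to library size, with TMM factors. The median total was lower in the SS group. A count of 3 corresponded to between 0.123 and 0.358 CPM. The correlation of log2 CPM between tumors of the same group ran from 0.930 to 0.969. Erbb2, Esr1 and Pgr, whose products define TNBC by their absence, summed to between 23.4 and 30.5 CPM, mostly Erbb2. Skeletal muscle markers varied widely, with sums from 874 to 9279 CPM in control tumors and from 282 to 17820 CPM in SS tumors.

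Clk1 was higher in SS-treated tumors than in controls, by 1.71-fold. It measured 129.8, 129.6 and 118.7 CPM in control tumors and 202.6, 212.9 and 230.6 CPM in SS tumors. The lowest SS tumor stood far above the highest control tumor, and the tumors of each group lay close together. The means were 126 ± 6.36 and 215 ± 14.2 CPM (SD, n = 3), which differ by 0.77 ± 0.097 (SE) on the log2 scale. Clk1 rested on 1642 to 2892 counts per tumor. In edgeR's quasi-likelihood test over 10902 genes, Clk1 ranked first by p, which is the value that drew attention to it and is no support, and the smallest adjusted p of any gene was 0.616, so 0 genes, or 0%, passed an adjusted p of 0.05. DESeq2's Wald test called 35 of the 6039 genes to which it gave an adjusted p, or 0.58%. Clk1 was among them, which is no support either, since this contrast chose it. Leaving out any 1 tumor kept the log2 fold change of Clk1 between 0.72 and 0.81.

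The other 3 kinases showed no such separation. Clk2 measured 118.0, 131.4 and 124.2 CPM in controls and 112.7, 144.0 and 128.9 CPM in SS tumors, with a log2 fold change of 0.04 ± 0.12 (SE). Clk3 measured 155.9, 132.6 and 161.5 CPM in controls and 160.0, 145.3 and 150.8 CPM in SS tumors, with a log2 fold change of 0.02 ± 0.11 (SE). Their groups overlapped nearly throughout their ranges.

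Clk4, the closest relative of Clk1 by coding sequence, also had overlapping groups. It measured 36.1, 30.2 and 47.6 CPM in controls and 40.1, 33.1 and 56.7 CPM in SS tumors, with a log2 fold change of 0.19 ± 0.24 (SE). Tumor 3 was the highest of each group. Of the 4 kinases, 1 therefore had groups that did not overlap, and it was higher in SS. Over all 10902 genes, 6.51% were higher in SS without overlap and 6.4% were lower, and nothing is read from the count in the family, since this contrast chose it.

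**Figure D1:**
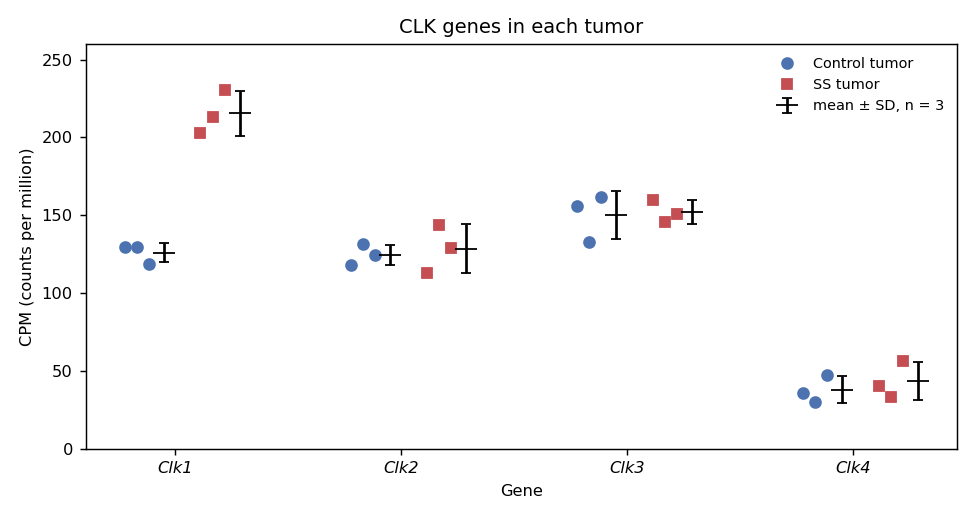
Level of each CLK gene in CPM (vertical axis, from 0) in the 3 control tumors (circles) and the 3 SS tumors (squares), with the mean and SD of each group as bars. The SS tumors of Clk1 sit between 202.6 and 230.6 CPM, above the highest control at 129.8 CPM, while the groups of Clk2, Clk3 and Clk4 overlap.

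Levels of the CLK genes were compared with each other only per length, as CPM per kilobase of the coding transcripts. In control tumors Clk3 was at 60.1 ± 6.14, Clk2 at 58.1 ± 3.0, Clk1 at 28.0 ± 2.54 and Clk4 at 19.6 ± 4.50 CPM per kilobase (SD, n = 3). Clk3 and Clk2 did not differ beyond their spread. The order was the same in SS tumors, where coding Clk1 was at 40.4 ± 7.74 and Clk4 at 22.2 ± 6.21 CPM per kilobase, and where Clk2 and Clk3 were at 60.0 ± 7.32 and 60.9 ± 2.98. Coding Clk1 stood above Clk4 in every tumor, but barely in control tumor 3, at 25.1 against 24.5 CPM per kilobase.

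Over the 6 tumors the log2 CPM of Clk1 had a Pearson correlation of 0.23 with Clk2, 0.03 with Clk3 and 0.30 with Clk4. Clk3 and Clk4 had 0.60, and Clk2 and Clk3 had -0.63. These values come from the same 6 libraries and describe them only.

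Both abundant Clk1 transcripts were higher in SS tumors. NR_027854 measured 76.1, 75.8 and 72.1 CPM in controls and 127.1, 153.1 and 142.6 CPM in SS tumors, with a log2 fold change of 0.91 ± 0.11 (SE). The coding NM_001042634 measured 51.8, 53.8 and 45.1 CPM in controls and 73.8, 58.2 and 85.9 CPM in SS tumors, with a log2 fold change of 0.53 ± 0.17 (SE). Neither transcript had overlapping groups, but the margin was narrow for the coding transcript, between control tumor 2 and SS tumor 2. NR_027854 held 74.1% of the difference between the mean CPM of the groups, against the 59.3% of Clk1 that it made up in controls, and NM_001042634 held 25.1%. Without SS tumor 2 the part of NR_027854 was 66.4%.

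The exon 4-skipping NR_027853 was scarce. It measured 1.89, 0 and 1.5 CPM in controls and 1.66, 1.67 and 2.13 CPM in SS tumors. The groups overlapped, and the value of control tumor 2 was an estimate that rounds to 0, where 3 counts would be 0.147 CPM.

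Among the 8 CLK transcripts, the groups did not overlap for 3, the 2 abundant Clk1 transcripts and 1 of Clk4. Over all 15132 transcripts tested, 12.4% had groups that did not overlap in either direction. In edgeR's test 0 transcripts, or 0%, had an adjusted p under 0.05, with a smallest adjusted p of 0.607.

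As a share of Clk1, NR_027854 made up 58.7%, 58.5% and 60.8% of the estimated counts in controls and 62.7%, 71.9% and 61.8% in SS tumors. The coding transcript made up 39.9%, 41.5% and 38.0% in controls and 36.4%, 27.3% and 37.2% in SS tumors. The shares did not overlap, yet the gap between SS tumor 3 and control tumor 3 was about 1 percentage point. The exact 95% binomial (Clopper-Pearson) interval of the NR_027854 share was 60.0% to 63.6% in SS tumor 3 and 58.9% to 62.5% in control tumor 3, so these 2 tumors could not be told apart at this depth. The interval in SS tumor 2, the shallowest library, was 69.7% to 74.0%. Such intervals cover counting error only and not the error of dividing reads between transcripts.

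The mean share of NR_027854 was 59.3 ± 1.26% in controls and 65.5 ± 5.57% in SS tumors (SD, n = 3), a difference of 6.19 percentage points. Without SS tumor 2 the difference was 2.98 percentage points, and that of the coding transcript went from -6.12 to -2.95 percentage points. The ratio of NR_027854 to NM_001042634 counts was 1.47, 1.41 and 1.60 in controls and 1.72, 2.63 and 1.66 in SS tumors. SS tumor 2 also had the highest sum of skeletal muscle markers, and the part of that tissue in the share was not tested. Over all 7203 transcripts of genes with at least 2 tested transcripts, 11.1% had shares that did not overlap between the groups.

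The share of Clk1 on noncoding entries was set beside that of other genes. There were 223 genes with both coding (NM) and noncoding (NR) RefSeq entries and a mean of at least 10 CPM, and their median noncoding share was 11.96% in controls. Clk1, at 60.2 ± 1.77% in controls and 66.3 ± 5.52% in SS tumors for its 2 noncoding transcripts together, ranked 27th, and 37 of the 223 genes were above 50% in controls. The median difference between SS and control tumors over these genes was 0.17 percentage points. The noncoding share was higher in every SS tumor than in any control for 20 genes, Clk1 among them, and lower for 13, and 37 other genes had a difference at least as high as that of Clk1. Over the whole library, noncoding entries took 2.19% to 2.71% of counts in controls and 2.15% to 3.0% in SS tumors.

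Noncoding entries also took most counts of some splicing factors of the lists described below and few counts of others, with no separation of the groups. Their mean share in controls was 0.29% in the SR protein Srsf9 and 0.29% in Zc3h14 of the speckle list. In Srsf3, another SR protein, the mean share was 92.9 ± 6.58% in controls and 85.4 ± 14.9% in SS tumors. In Srsf7 it was 71.1 ± 9.10% and 69.0 ± 8.71%, and in Luc7l, a U1 snRNP-associated factor, 76.9 ± 13.2% and 68.9 ± 6.53% (SD, n = 3). Hsf1, the heat shock transcription factor, was the only gene of these lists with 10 CPM or more and both kinds of entry whose groups did not overlap, at 16.8 ± 5.96% in controls and 26.1 ± 3.93% in SS tumors.

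**Figure D2:**
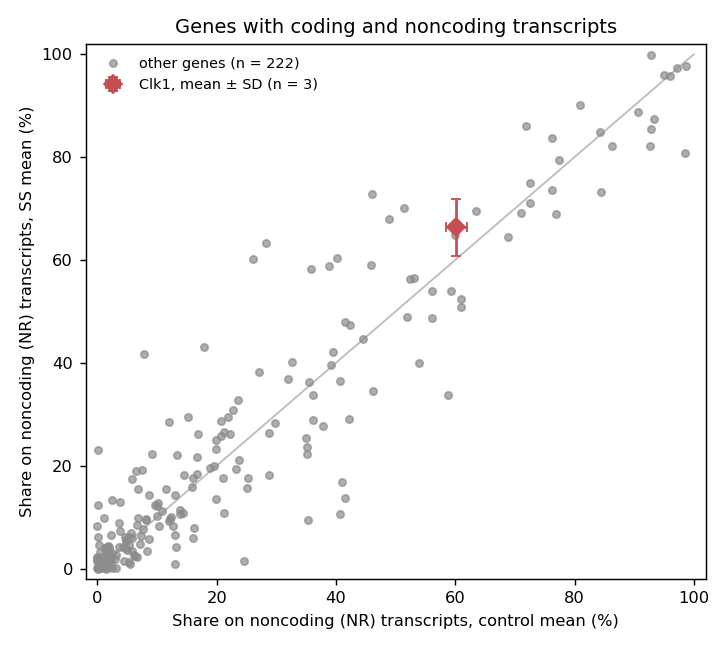
Share of a gene's counts on noncoding (NR) transcripts in percent, mean of the 3 control tumors (horizontal axis) against mean of the 3 SS tumors (vertical axis), for 223 genes with both kinds of entry, with a line at equal shares. Clk1, drawn with the SD of each group, lies at 60.2% and 66.3%, above the line among many genes that lie as far from it.

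In Clk2 the division between the 2 transcripts varied more within the control group than between the groups. NM_001163432, which lacks the 3 bases, took 54.0%, 20.03% and 47.1% of Clk2 in controls and 35.8%, 41.3% and 47.9% in SS tumors. Its level was 63.7, 26.3 and 58.4 CPM in controls and 40.3, 59.5 and 61.7 CPM in SS tumors, while NM_007712 was at 54.3, 105.1 and 65.7 CPM and at 72.4, 84.5 and 67.2 CPM. Control tumor 2 had the lowest value, and the error of dividing reads between transcripts that differ by so few bases was not measured. The mean shares of NM_001163432 were 40.4 ± 17.9% and 41.6 ± 6.06% (SD, n = 3).

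Clk2 overlaps the read-through gene Gm45927, which runs on into its neighbor Scamp3 and shares Clk2 exons, so reads of the 2 genes may be divided between them by the counting. Gm45927 measured 71.4, 75.4 and 79.6 CPM in controls and 64.9, 45.9 and 84.0 CPM in SS tumors. The sum of Clk2 and Gm45927 was 189, 207 and 204 CPM in controls and 178, 190 and 213 CPM in SS tumors, with a log2 fold change of -0.05 ± 0.10 (SE). The groups overlapped with and without the read-through, while the sign of the small difference changed.

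Clk3 was counted in a single transcript, NM_007713, whose 13 exons hold 638 codons, the longest coding sequence of the family.

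In Clk4 the short transcript NM_001304744 was estimated above 0 in controls alone. It lacks exon 2, of 161 bases, and exon 4, and has 301 codons against 481 in NM_007714. It measured 1.47, 1.81 and 0.88 CPM in controls, from 18.6, 36.8 and 21.6 estimated counts, and its estimates in the 3 SS tumors were residues that round to 0. It took 4.06%, 5.99% and 1.86% of Clk4 in controls. No fold change is given, since the division of reads between it and NM_007714 was not checked here. These are estimates from a division of reads among overlapping transcripts of a gene with 278 to 1160 counts per tumor.

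The main Clk4 transcript NM_007714 measured 34.7, 28.4 and 46.7 CPM in controls and 40.1, 33.1 and 56.7 CPM in SS tumors. Its groups overlapped in level.

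**Figure D3:**
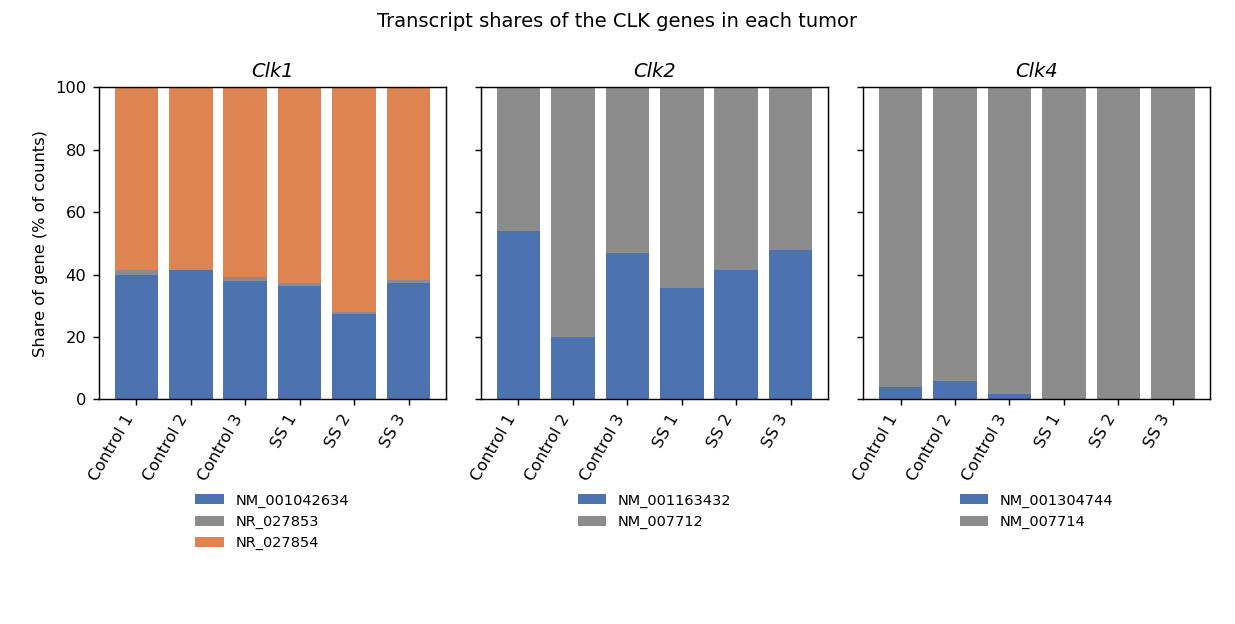
Share of each gene's estimated counts taken by each of its transcripts, in percent, as stacked bars from 0 to 100 for each of the 6 tumors, for Clk1, Clk2 and Clk4. NR_027854 takes more than 58% of Clk1 in every tumor and 71.9% in SS tumor 2, the Clk2 division differs most in control tumor 2, and NM_001304744 of Clk4 appears in the control tumors alone.

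The nearest genes on either side of the CLK genes were read for comparison. Beside Clk1, Bzw1 had a log2 fold change of 0.04 ± 0.094 (SE) and Ppil3 one of -0.20 ± 0.15. Scamp3 beside Clk2 was at -0.25 ± 0.16, and Edc3 and Arid3b beside Clk3 were at 0.18 ± 0.23 and 0.09 ± 0.29. All 5 had overlapping groups. Hcn3 beside Clk2 did not pass the filter on low counts, and values for the neighbors of Clk4 were not used here.

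The 5 genes whose log2 CPM was most like that of Clk1 over the 6 tumors, among 6286 genes with a mean of at least 10 CPM, were Dhx57, Pnisr, Trps1, Phf12 and Rnaseh2b, with Pearson correlations from 0.974 to 0.988. Dhx57, a putative RNA helicase, measured 36.8, 35.7 and 36.4 CPM in controls and 49.2, 54.1 and 56.9 CPM in SS tumors. Pnisr, an SR-related protein that binds the speckle protein pinin, measured 184, 185 and 178 CPM in controls and 251, 244 and 286 CPM in SS tumors. Trps1, a GATA-type transcriptional repressor, measured 377, 365 and 378 CPM in controls and 478, 494 and 502 CPM in SS tumors. All 5 had groups that did not overlap, which the choice of genes that track Clk1 nearly fixes, so nothing is read from it. The 5 genes most like each of Clk2, Clk3 and Clk4 had correlations from 0.946 to 0.991.

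The other kinases of SR proteins, in a list with SRPK, DYRK and HIPK kinases, did not separate the groups. Of 14 tested, 0 passed an unadjusted 0.05 threshold in edgeR's test in either direction and 0 had groups without overlap, with a median log2 fold change of -0.08 against -0.0013 over all genes. Srpk1 was at 0.06 ± 0.11 (SE), Srpk2 at -0.12 ± 0.12 and Prpf4b, a kinase of the spliceosome, at 0.16 ± 0.12. Dyrk1a, Dyrk1b and Hipk3 had the smallest p of the list, at -0.20 ± 0.10, 0.32 ± 0.17 and -0.18 ± 0.12. Over all genes tested, 3.19% were higher and 3.16% lower at an unadjusted p under 0.05. Without overlap, 6.51% were higher and 6.4% lower. These shares stand beside the counts of every list below. None of the genes in any list below passed the adjusted p of 0.05 in edgeR's test. DESeq2's Wald test called 3 genes of these pathway lists, Srsf5, Rbm25 and Zfc3h1.

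The SR proteins, substrates of CLK kinases, had a median log2 fold change of 0.18 over 12 tested genes, of which 10 were above 0, 2 were higher at an unadjusted p under 0.05 and 0 lower. Srsf5 measured 395, 358 and 322 CPM in controls and 547, 508 and 478 CPM in SS tumors, at 0.51 ± 0.11 (SE). Tra2b, a splicing activator related to SR proteins, measured 49.5, 50.2 and 50.2 CPM in controls and 82.1, 60.9 and 74.0 CPM in SS tumors, at 0.54 ± 0.13. Srsf11 had groups that did not overlap in the other direction, at -0.25 ± 0.13. The summed level of the list ran from 1271 to 1494 CPM in controls and from 1626 to 1803 CPM in SS tumors, without overlap. Without Srsf5 the sums overlapped, at 948 to 1136 CPM in controls and 1118 to 1256 CPM in SS tumors.

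Other proteins of nuclear speckles, the compartments where SR proteins are stored, made up the largest list. Of 22 tested, 8 were higher and 1 lower at an unadjusted p under 0.05, 10 were higher and 1 lower without overlap, and the median log2 fold change was 0.17. Rbm25, a U1-associated splicing regulator, measured 720, 608 and 619 CPM in controls and 902, 990 and 1053 CPM in SS tumors, at 0.60 ± 0.11 (SE). Rsrp1, an arginine- and serine-rich protein, was at 1.37 ± 0.41 from levels of 0.95 to 1.27 CPM in controls and 2.38 to 3.30 CPM in SS tumors. Zc3h14, a poly(A)-binding protein, was lower, at -0.30 ± 0.087. The sum of the list ran from 5753 to 6316 CPM in controls and from 6800 to 6896 CPM in SS tumors, and without Rbm25 from 5144 to 5596 CPM and from 5810 to 5967 CPM.

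Among phosphatases and importers of SR proteins, 7 genes had a median of -0.05, with 0 higher and 1 lower at an unadjusted p under 0.05. Ipo7, an import receptor, was at -0.29 ± 0.11 (SE), from 542, 514 and 619 CPM in controls and 428, 498 and 445 CPM in SS tumors. The phosphatase subunits Ppp1r10 and Ppp1r8 were at 0.35 ± 0.16 and -0.12 ± 0.14. All 3, named for the smallest p of the list, had groups that did not overlap, with Ppp1r10 higher in SS and Ipo7 and Ppp1r8 lower. The margin of Ppp1r8 was narrow, between 24.03 CPM in control tumor 1 and 23.88 CPM in SS tumor 1. Over all genes, 6.51% were higher and 6.4% lower without overlap.

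Of 7 long RNAs listed as kept in the nucleus, 6 had counts and 3 passed the filter and were tested, with a median log2 fold change of 0.65. Xist, which coats the inactive X chromosome, was at 0.73 ± 0.18 (SE), from 13.4 to 14.3 CPM in controls and from 18.8 to 27.1 CPM in SS tumors. Neat1, the scaffold of paraspeckles, was at 0.65 ± 0.24, from 6.32 to 7.51 CPM in controls and from 8.78 to 13.7 CPM in SS tumors. Both passed an unadjusted p under 0.05 and neither overlapped. Malat1, an abundant RNA of speckles, overlapped at 0.21 ± 0.14.

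Factors of nonsense-mediated decay, of which the exon 4-skipping Clk1 form is an annotated target, were listed with those of the nuclear exosome. Over 13 genes the median log2 fold change was 0.14, with 2 higher and 0 lower at an unadjusted p under 0.05. Zfc3h1, which directs polyadenylated nuclear RNA to the exosome, was at 0.43 ± 0.097 (SE), from 141 to 158 CPM in controls and from 192 to 215 CPM in SS tumors. Smg1, the kinase of Upf1, was at 0.25 ± 0.10 and Upf3b at 0.52 ± 0.23, the latter with overlapping groups. The sum of the list ran from 1785 to 1992 CPM in controls and from 2047 to 2261 CPM in SS tumors.

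CLK1 splicing is known to respond to heat and cold, and genes of those responses were read beside it. Of 8 tested, 0 were higher and 1 was lower at an unadjusted p under 0.05, with a median of -0.15. Hsp90aa1, a cytosolic chaperone, was at -0.30 ± 0.11 (SE), from 439 to 523 CPM in controls and from 348 to 416 CPM in SS tumors. The heat-inducible Hspa1a and Hspa1b had overlapping groups, at -0.58 ± 0.38 and -0.47 ± 0.37.

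**Figure D4:**
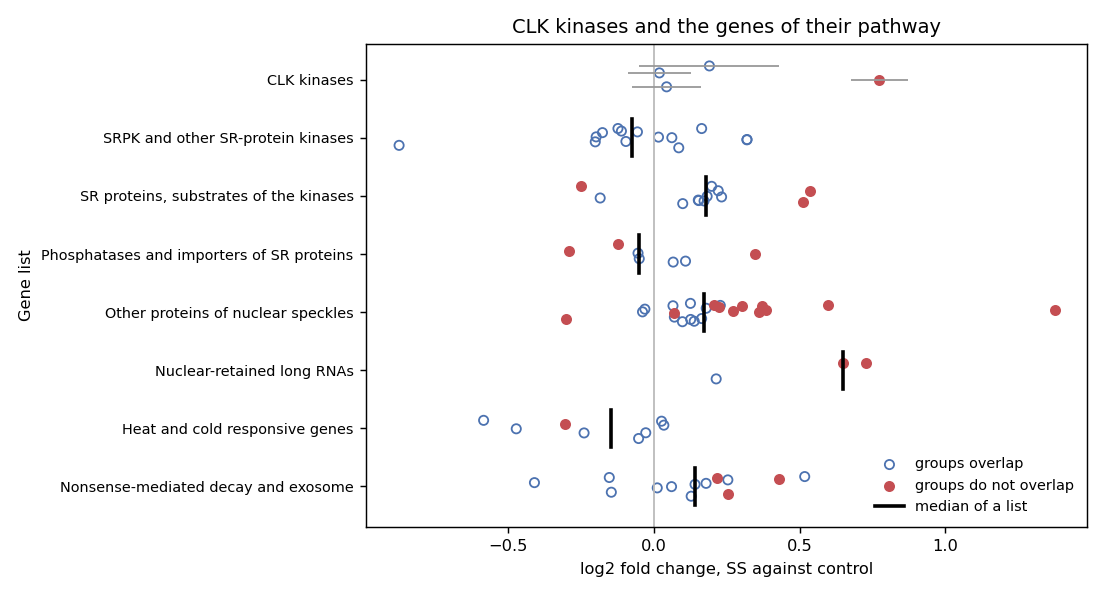
Log2 fold change of SS against control tumors (horizontal axis) for the CLK genes, with SE as lines, and for each tested gene of 7 pathway lists (rows), filled where the groups did not overlap, with the median of each list as a bar. Clk1 lies at 0.77, and the speckle list of 22 genes has 10 filled genes above 0 and 1 below. Over all genes tested, 6.51% were higher and 6.4% lower without overlap.

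Markers of other cells were read beside these results. The summed leukocyte markers ran from 512 to 566 CPM in controls and from 570 to 717 CPM in SS tumors, without overlap, and 1 of the 6 tested, the integrin Itgax, was higher by edgeR's test at an unadjusted p under 0.05. Without Itgax the sums overlapped, at 445 to 515 CPM in controls and 439 to 545 CPM in SS tumors. Erythroid markers were lower for 4 of 5 genes at an unadjusted p under 0.05, with sums from 1890 to 3927 CPM in controls and from 853 to 1934 CPM in SS tumors. The sums of muscle, fat, fibroblast, endothelial, epithelial and mesenchymal markers overlapped, although Krt18 of the epithelial list was lower in every SS tumor, at 80.4 to 98.1 CPM in controls and 59.5 to 70.0 CPM in SS tumors. The part of leukocytes, blood, epithelium and muscle in the level of Clk1 was not tested.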

How the data were processed

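RNA of 6 tumors, 3 per group, was analysed. The deposited values are estimated counts of RefSeq transcripts, which the authors did not normalize and from which they removed low entries. Each row held at least 10 counts over the 6 tumors. The processing notes list CASAVA 1.8.1, Bowtie2 2.2.5, STAR 2.5.3a and mm10, and the counting tool is not given in the sources used here. For genes with several transcripts, a tool divided reads by estimate. Counts were summed by symbol and rounded, after 21 symbols held as dates were restored. Genes and transcripts were filtered with filterByExpr, scaled by TMM and compared by quasi-likelihood tests in edgeR 4.0.16 (R 4.3.3), with p-values adjusted by Benjamini and Hochberg's method. Shares used unrounded counts. Exons, lengths and sequences came from GENCODE M21, the links between entries from its metadata. The fits were tested on simulated data. edgeR's diffSpliceDGE called 12 of 2809 genes (Clk4 among them, and 0 in its Simes form) and called too many unchanged genes in simulation, so its calls were not used. The genes named are the members with their neighbors, the 5 most like Clk1, and the 3 of smallest p in each list with Srpk1, Srpk2 and Prpf4b. Gm45927, Itgax, Krt18, Hsf1, Srsf3, Srsf7, Srsf9 and Luc7l were named after their values were seen. The members and lists were chosen with earlier results of these data known. As alternatives, RLE and upper-quartile scaling, quantile normalization with a t statistic, DESeq2 1.42.0, limma-voom (limma 3.58.1), no filter, a replicate block and leaving out each tumor were run.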

Additional observations from a re-analysis of the deposited data

How the results depend on the processing

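Clk1 kept its sign under the alternatives run, with log2 fold changes from 0.72 to 0.81 when 1 tumor was left out. With coding (NM) transcripts alone, added after the data were seen, it was 0.53. DESeq2's Wald test called 35 genes and the other alternatives 0. Without the filter on low counts the median log2 fold change of the nuclear-retained RNAs was 0.30, against 0.65 in the main fit. Leaving out 1 tumor moved it from 0.27 to 0.71, that of the decay and exosome list from 0.079 to 0.21, that of the speckle list from 0.14 to 0.22 and that of the phosphatases and importers from -0.068 to 0.029, where it changed sign without control tumor 2. The lowest value of the nuclear RNAs and the highest of the speckle and decay lists came without SS tumor 2. The median of the SR proteins was 0.18, and 0.082 without control tumor 3. That of the heat and cold genes, -0.15, ran from -0.23 without control tumor 2 to -0.071 without SS tumor 2 and was -0.25 without the filter, and that of the other kinases, -0.08, was -0.025 without control tumor 1 and -0.044 without SS tumor 3. Sums of lists without the gene of the largest difference were added after the data were seen. The small differences of Clk2 and Clk3 changed sign under 2 alternatives each and that of Clk4 under 1. With the replicate block, 643 genes had an unadjusted p under 0.05 against 693, of which 479 were shared, and the log2 fold change of Clk1 was 0.77. Same-numbered tumors had correlated deviations of 0.12, 0.02 and 0.08, so they were treated as sharing a number only. The length-corrected share was not run for Clk1, since the length of NR_027854 was not read here. With 3 tumors per group, Clk4 at 278 to 1160 counts had the least precise fold change. The causes of these changes were not tested.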
